A study of Drosophila melanogaster with 3 samples.

Results

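The genes examined here are the Notch receptor gene *N*, the ligand gene *Ser*, *Su(H)*, *H* and the Enhancer of split genes *E(spl)m3-HLH*, *E(spl)mbeta-HLH*, *E(spl)m7-HLH*, *E(spl)m8-HLH* and *E(spl)malpha-BFM*. They belong to a set of 10 Notch pathway genes that was named by symbol, of which these 9 were found among the 17896 genes of the count table by that symbol, and the remaining gene was not analysed here. Total RNA was sequenced from whole homozygous *CycC Y5* larvae of *Drosophila melanogaster* at the wandering stage of the third instar, in 3 libraries from 10 larvae each. The *Y5* allele is a null of *CycC*, the cyclin C gene on chromosome arm 3R, and maternal cyclin C may remain in the larvae. Neither control nor *Cdk8* mutant larvae were analysed here, and the comparisons made are between genes of a library and between libraries of this 1 genotype.

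Notch is a receptor that neighbouring cells activate through membrane-bound ligands such as Serrate. Cleavage then frees its intracellular domain, which enters the nucleus and joins the DNA-binding protein Suppressor of Hairless, encoded by *Su(H)*, and the coactivator Mastermind. Hairless, encoded by *H*, holds Su(H) in a repressing complex with the corepressors Groucho and CtBP. The best known targets lie in the E(spl) complex, whose bHLH proteins repress proneural genes and whose Bearded family proteins, E(spl)malpha-BFM among them, inhibit the ligand regulator Neuralized. In larvae this signalling acts in imaginal discs and the nervous system. In mammalian cells cyclin C and its kinase phosphorylate the Notch intracellular domain, which marks it for breakdown.

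The libraries held 10222639, 10179342 and 12146443 counts on genes and transposons. *CycC* was listed at 0 in each of them, and 3 counts, the limit that a count of 0 allows, are 0.293, 0.295 and 0.247 CPM (counts scaled by the library total). Library 3 stood apart from the others. Its 20 most counted features took 25.3% of the counts, against 20.1% and 19.6% in libraries 1 and 2, and on the scale of total counts the median feature lay 0.26 log2 units below those libraries. Comparisons between libraries therefore use sizes scaled by the trimmed mean of M values (TMM), on which that median was -0.0047 for library 3. Nested genes, those whose whole span falls within a larger gene, numbered 3520, and for 3518 of them each library listed 0, which therefore measures no expression there. No span of the 9 genes overlaps another gene. Markers of most tissues of a larva were present. The genes *nub*, *vg*, *ap* and *Dll* for imaginal discs, *nSyb*, *Syt1* and *brp* for neurons, and the lists for muscle, fat body, salivary gland, midgut and hemocytes were counted in all libraries, *elav* had at most 1 count and is mostly overlapped, and of the neuroblast markers *wor* was counted and *ase* and *mira* are nested.

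The E(spl) members are intronless and lie in 1 gene cluster, and the order of these genes along the chromosome is given here because their values are compared along it below. The 12 genes of the E(spl) complex span 43.4 kb of chromosome 3R, from 25997621 to 26041008 in build dm6, with gaps of 26 to 4869 bp. *E(spl)mbeta-HLH* (FBgn0002733) runs from 26005046 to 26006023 on the minus strand. *E(spl)malpha-BFM* (FBgn0002732, 26010893 to 26011568), *E(spl)m3-HLH* (FBgn0002609, 26021823 to 26023127), *E(spl)m7-HLH* (FBgn0002633, 26037038 to 26038019) and *E(spl)m8-HLH* (FBgn0000591, 26040240 to 26041008) are on the plus strand. The annotation gives each of these 5 genes a single exon, so the span is also the transcript. *gro*, the gene for the corepressor Groucho, starts 727 bp beyond *E(spl)m8-HLH*.

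The other members are scattered and contain introns. *N* (FBgn0004647) lies on chromosome X from 3134870 to 3172221 on the plus strand, with 10150 bp of exons in a span of 37352 bp. *Ser* (FBgn0004197) lies on 3R from 27172090 to 27194267 on the minus strand, with 5831 bp of exons in 22178 bp. *H* (FBgn0001169) lies on 3R from 20621938 to 20628915, and *Su(H)* (FBgn0004837) on 2L from 15039488 to 15043334, both on the plus strand. The deposited length of every gene is its whole span, and whether intronic reads were counted is not given in the sources used here. Levels are compared between genes as CPM per kb of merged exons.

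All 9 genes were detected in every library, and their mean levels spanned 4.60 to 33.8 CPM per kb. *E(spl)mbeta-HLH* was the most abundant at 33.8 ± 8.86 CPM per kb (SD, n = 3), which exceeds the level of 83.4% of the 12720 genes detected. *E(spl)malpha-BFM* followed at 25.2 ± 10.5 CPM per kb (SD, n = 3). *Su(H)* was the lowest at 4.60 ± 0.613 CPM per kb (SD, n = 3), above 41.2% of detected genes. The bHLH genes thus covered much of this range, since *E(spl)m8-HLH*, a neighbour of *gro* in the same cluster, reached only 8.28 ± 2.44 CPM per kb (SD, n = 3). The SDs of these levels are on total counts and include the general offset of library 3. For *Su(H)* the level was 13.6 ± 1.81 CPM on total counts and 13.5 ± 0.508 CPM on TMM sizes (SD, n = 3).

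**Figure D1:**
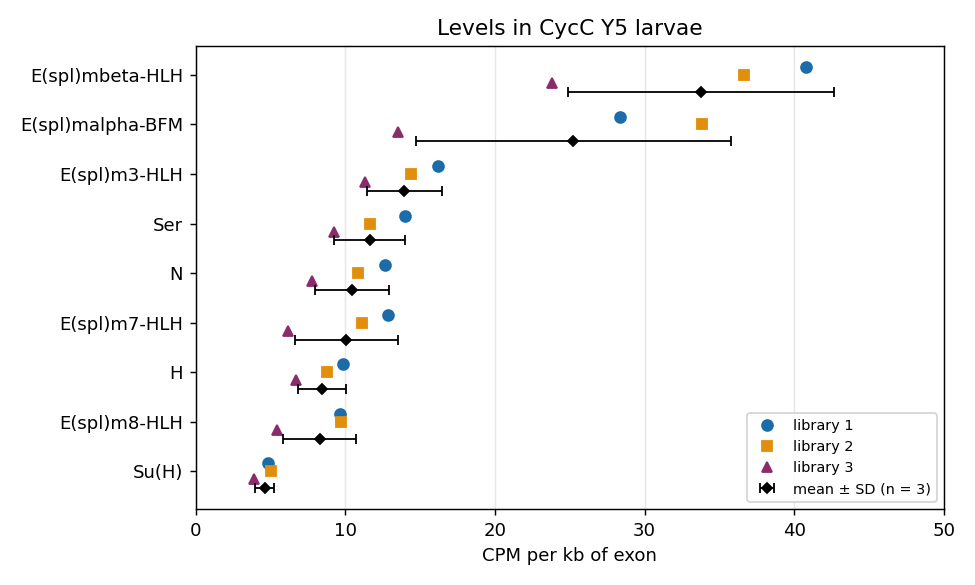
Level of each of the 9 genes in CPM per kb of merged exon (horizontal axis) in CycC Y5 larvae. Coloured symbols are the 3 libraries, and black diamonds with bars are the mean and SD (n = 3). *E(spl)mbeta-HLH* (33.8) and *E(spl)malpha-BFM* (25.2) lie highest and *Su(H)* (4.60) lowest. The library 3 symbol is the lowest in every row, on total counts and so with the general offset of library 3 included.

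The receptor and its ligand were present at similar levels per length. *N* had 1314, 1121 and 959 counts in libraries 1, 2 and 3, which is 129, 110.1 and 79.0 CPM, or 10.4 ± 2.47 CPM per kb (SD, n = 3). *Ser* had 834, 691 and 653 counts, which is 81.6, 67.9 and 53.8 CPM, or 11.6 ± 2.39 CPM per kb (SD, n = 3). For both genes library 1 was the highest and library 3 the lowest. Within libraries *Ser* exceeded *N* per kb by log2 ratios of 0.14, 0.10 and 0.25, a mean of 0.16 ± 0.074 (SD, n = 3). The difference was in the same direction in 3 of 3 libraries and exceeded 2 SD of the log2 ratio, but it was only 1.12-fold. Over 4 ratios tested, the two-sided exact sign-flip permutation test gave p = 0.25 for each, the smallest p that 3 libraries allow, and an adjusted p of 0.25.

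Of the nuclear pair, the corepressor adaptor *H* was the more abundant. *H* had 606, 535 and 487 counts, which is 59.3, 52.6 and 40.1 CPM, or 8.44 ± 1.62 CPM per kb (SD, n = 3). *Su(H)*, its DNA-binding partner, had 146, 152 and 140 counts, which is 14.3, 14.9 and 11.5 CPM. The counts of *Su(H)* were nearly equal in the libraries, those of *H* were highest in library 1. Per kb the log2 ratio of *Su(H)* to *H* was -1.02, -0.79 and -0.77, a mean of -0.86 ± 0.14 (SD, n = 3), so that *Su(H)* stood at 0.551 of the level of *H* (exact sign-flip permutation test, p = 0.25, adjusted p = 0.25).

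The 4 bHLH repressor genes summed to more RNA per kb than the receptor gene, at a ratio that changed little between libraries. *E(spl)mbeta-HLH* had 408, 365 and 283 counts, which is 39.9, 35.9 and 23.3 CPM. *E(spl)m3-HLH* had 216, 191 and 179 counts, which is 21.1, 18.8 and 14.7 CPM. For both genes library 1 was the highest and library 3 the lowest, and the remaining bHLH members were lower. *E(spl)m7-HLH* had 129, 111 and 74 counts, which is 12.6, 10.9 and 6.09 CPM. *E(spl)m8-HLH*, the least counted of all 9 genes, had 76, 76 and 51 counts, which is 7.43, 7.47 and 4.20 CPM. The log2 ratio of the summed bHLH members to *N*, per kb, was 2.65, 2.73 and 2.59, a mean of 2.66 ± 0.069 (SD, n = 3), or 6.32-fold (exact sign-flip permutation test, p = 0.25, adjusted p = 0.25). The ratio sets a sum of 4 genes against 1 gene. Its size also depended on the length used, with a mean log2 ratio of 3.11 by coding length and 4.54 by gene span. Of this sum *E(spl)mbeta-HLH* is the largest part, and reads of these related genes could have been split or lost where their sequences are alike.

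*E(spl)malpha-BFM*, the Bearded family member, varied the most. It had 196, 233 and 111 counts, which is 19.2, 22.9 and 9.14 CPM. Library 3 lay far below the others: the 95% exact Poisson interval of its 111 counts, 91.3 to 134, does not reach the interval of library 1, 169.5 to 225, and these intervals cover counting error only. Against the summed bHLH members its log2 ratio per kb was -1.49, -1.09 and -1.79, a mean of -1.45 ± 0.35 (SD, n = 3; exact sign-flip permutation test, p = 0.25, adjusted p = 0.25). This SD is wider than that of the other ratios.

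In the order of levels per kb the genes ran *E(spl)mbeta-HLH*, *E(spl)malpha-BFM*, *E(spl)m3-HLH*, *Ser*, *N*, *E(spl)m7-HLH*, *H*, *E(spl)m8-HLH* and *Su(H)*. Neighbours were paired by ranking the mean levels of these same libraries, which itself favours the direction given for each pair. Of the 8 pairs of neighbours, 3 were separated by more than 2 SD of their log2 ratio within libraries. These were *E(spl)m3-HLH* over *Ser* (0.27 ± 0.051, SD, n = 3), *Ser* over *N* as given above, and *E(spl)m8-HLH* over *Su(H)* (0.81 ± 0.28, SD, n = 3). The upper pairs, *E(spl)mbeta-HLH* over *E(spl)malpha-BFM* (0.48 ± 0.35, SD, n = 3) and *E(spl)malpha-BFM* over *E(spl)m3-HLH* (0.77 ± 0.49, SD, n = 3), kept their direction in 3 of 3 libraries without being separated by 2 SD. The neighbours among *N*, *E(spl)m7-HLH*, *H* and *E(spl)m8-HLH* were not separated, although *N* lay above *H* in 3 of 3 libraries. *N* exceeded *E(spl)m7-HLH* by 0.084 ± 0.20 (SD, n = 3) in 1 of 3 libraries, *E(spl)m7-HLH* exceeded *H* by 0.21 ± 0.27 (SD, n = 3) in 2 of 3, and *H* exceeded *E(spl)m8-HLH* by 0.047 ± 0.22 (SD, n = 3) in 2 of 3. The exact permutation test gave adjusted p values of 0.4 for the 5 pairs with 1 direction and up to 1 for the rest. The order also rests on the length used: by the deposited gene span, *N* and *Ser* came last.

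The question between libraries was whether the genes spread beyond counting noise among pools of larvae of 1 genotype. Of the 9 genes 6 did so: *N*, *Ser*, *H*, *E(spl)mbeta-HLH*, *E(spl)m7-HLH* and *E(spl)malpha-BFM* (chi-square test of counts against TMM-scaled sizes, threshold 0.05 after Benjamini-Hochberg adjustment). The same test called 3903 of the 9898 features with at least 10 counts in every library, a background of 39.4%, and the called share rose with depth, with 16.7% of features called at mean counts of 10 to 100 and 77.3% at 1000 or more. The adjusted p was 1.2e-12 for *N*, 5.8e-06 for *Ser* and 0.0027 for *H*. It was 3.7e-05 for *E(spl)mbeta-HLH*, 0.0018 for *E(spl)m7-HLH* and 3.9e-09 for *E(spl)malpha-BFM*. For *Su(H)* (adjusted p = 0.88), *E(spl)m3-HLH* (0.23) and *E(spl)m8-HLH* (0.10) no such spread was detectable at their counts. The labels do not say whether the pools came from separate cultures, so these values measure the spread between these samples and compare libraries, not conditions.

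The spread beyond counting noise was estimated for each gene as well. The biological coefficient of variation estimates the spread left after counting noise. Each gene's value is drawn toward those of features of similar level, so it is not a measure of that gene's counts alone. It was 0.258 for *E(spl)malpha-BFM*, 0.212 for *E(spl)m7-HLH*, 0.188 for *E(spl)m8-HLH* and 0.165 for *E(spl)mbeta-HLH*, against a median of 0.142 over all features. *E(spl)m3-HLH*, at 0.129, lay below this median. So did *H* (0.136) and *Su(H)* (0.115), while *Ser* (0.144) and *N* (0.164) lay above it. The value of *Su(H)* is not a spread seen in its own counts, for which the chi-square test gave an adjusted p of 0.88. Without library 3 the values of the 5 E(spl) members came close together, at 0.110 for *E(spl)malpha-BFM*, 0.117 for *E(spl)m7-HLH*, 0.123 for *E(spl)m8-HLH*, 0.102 for *E(spl)mbeta-HLH* and 0.109 for *E(spl)m3-HLH*. The remaining genes came into the same range, at 0.109 for *N*, 0.111 for *Ser*, 0.107 for *H* and 0.104 for *Su(H)*. The common coefficient over all features fell as well, from 0.171 to 0.121. With a library left out, each gene's value is drawn more strongly toward those of other features. These values therefore cannot show whether the fall was particular to the E(spl) genes.

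All 9 genes were lowest in library 3 on the TMM scale. By background, library 3 was the lowest for 38.5% of the 9898 features, and 15.0% were both lowest there and called. *E(spl)malpha-BFM* lay 0.94 log2 units below the mean of libraries 1 and 2, a value with only 0.839% of features lower, so that those libraries stood 1.92-fold above library 3. *E(spl)m7-HLH* lay 0.69 units below them (2.03% of features lower), *E(spl)m8-HLH* 0.57 units (3.38%) and *E(spl)mbeta-HLH* 0.45 units (6.01%). *E(spl)m3-HLH* differed by 0.18 units, with 23.5% of features lower, and so was within the bulk of all features. Of the genes outside the cluster, *N* lay 0.34 units below libraries 1 and 2 (10.2% of features lower), *H* 0.23 (18.6%), *Ser* 0.22 (19.4%) and *Su(H)* 0.089 (37.1%), so that *E(spl)m3-HLH* deviated less than *N*, *H* and *Ser*. The median deviation of library 3 was -0.57 over the 5 E(spl) members and -0.22 over the other 4, and on total counts these were -0.82 and -0.47, with the general offset of -0.26 included.

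**Figure D2:**
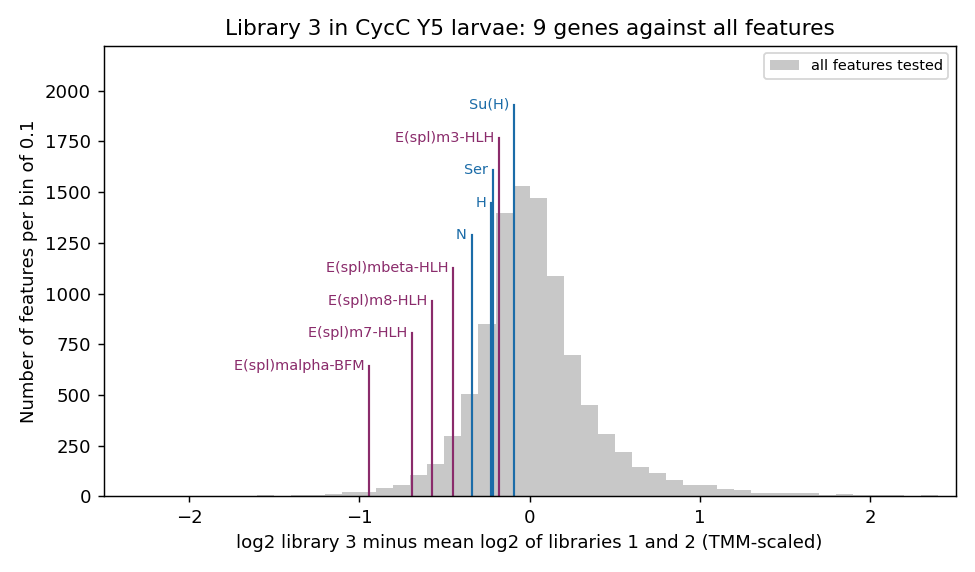
Number of features (vertical axis, bins of 0.1) by log2 level in library 3 minus the mean log2 level of libraries 1 and 2, TMM-scaled (horizontal axis), for 9898 features, of which 14 lie beyond the axis. Vertical lines mark the 9 genes, with E(spl) genes in purple and the others in blue, and their heights only separate the labels. All 9 lie left of 0, from *E(spl)malpha-BFM* at -0.94 to *Su(H)* at -0.089.

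The calls of the E(spl) members rested on library 3, that of *Ser* on library 1, and that of *H* on both. Without library 3, 0 of the 5 E(spl) members were called by the chi-square test, and 0 had an unadjusted p under 0.05. In that setting 16.3% of 9979 features were called, a share over all depths and not matched to these genes. *N* (adjusted p = 0.00023) and *Ser* (0.00088) were still called then, and *H* was not (0.089). Without library 1, where the background was 29.5%, *Ser* (adjusted p = 0.62) and *H* (0.37) were no longer called, while *N* (0.0056), *E(spl)mbeta-HLH* (0.010), *E(spl)m7-HLH* (0.032) and *E(spl)malpha-BFM* were. Without library 2 (background 31.8%) the calls of the 9 genes were those of all libraries.

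**Figure D3:**
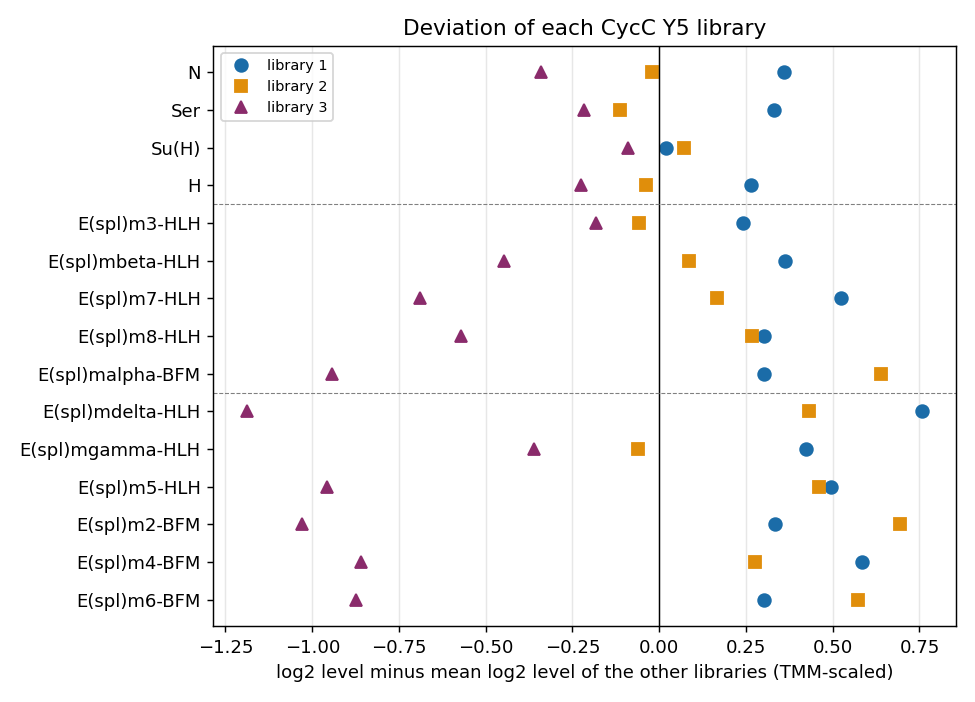
Log2 level of each CycC Y5 library minus the mean log2 level of the other libraries, TMM-scaled (horizontal axis). Circles, squares and triangles are libraries 1, 2 and 3, and dashed lines divide the upstream genes, the 5 E(spl) members and the other E(spl) genes apart from *E(spl)m1*. Library 3 is the lowest in each row, by 0.089 for *Su(H)* and by up to 1.19 for *E(spl)mdelta-HLH*.

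Among the other genes of the complex all but *E(spl)m1* were lowest in library 3 as well. *E(spl)mdelta-HLH*, a bHLH gene at the end of the cluster, had 103, 90 and 42 counts in libraries 1, 2 and 3, a deviation of -1.19 for library 3 (adjusted p = 9.4e-06). *E(spl)m2-BFM* had 114, 137 and 61 counts (-1.03, adjusted p = 3.4e-06) and *E(spl)m4-BFM* had 101, 89 and 52 (-0.86, adjusted p = 0.0011), both Bearded family genes. *E(spl)mgamma-HLH*, with 90, 73 and 63 counts, was not called (-0.36, adjusted p = 0.15), nor was *E(spl)m6-BFM*, with 26, 30 and 15 counts (adjusted p = 0.16). *E(spl)m5-HLH* had 16, 16 and 8 counts and was below the minimum for testing. *E(spl)m1* is listed as *Kaz-m1*, lies inside the cluster and codes for neither a bHLH nor a Bearded protein. It had 2220, 2231 and 2728 counts and was highest in library 3 (0.29, adjusted p = 5.6e-15), but 55.0% of its span overlaps other genes and its count is uncertain. Of these 7 other genes of the complex, *E(spl)m1* included, 6 were tested, of which 5 were lowest in library 3 and 4 were called. The counts that follow leave out *E(spl)m1*, the tested gene that went the other way. Then 10 of the 11 genes of the complex were tested, 10 of 10 were lowest in library 3 (38.5% of all features) and 6 of 10 were called (39.4% of all features). Without library 3 the chi-square test called 0 of 11 (0 at an unadjusted p under 0.05), against 16.3% of all features. That share is not matched to the depth of these genes. With all libraries, 16.7% of features were called at mean counts of 10 to 100. The result of 0 of 11 is therefore not read as a trait of the complex.

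**Figure D4:**
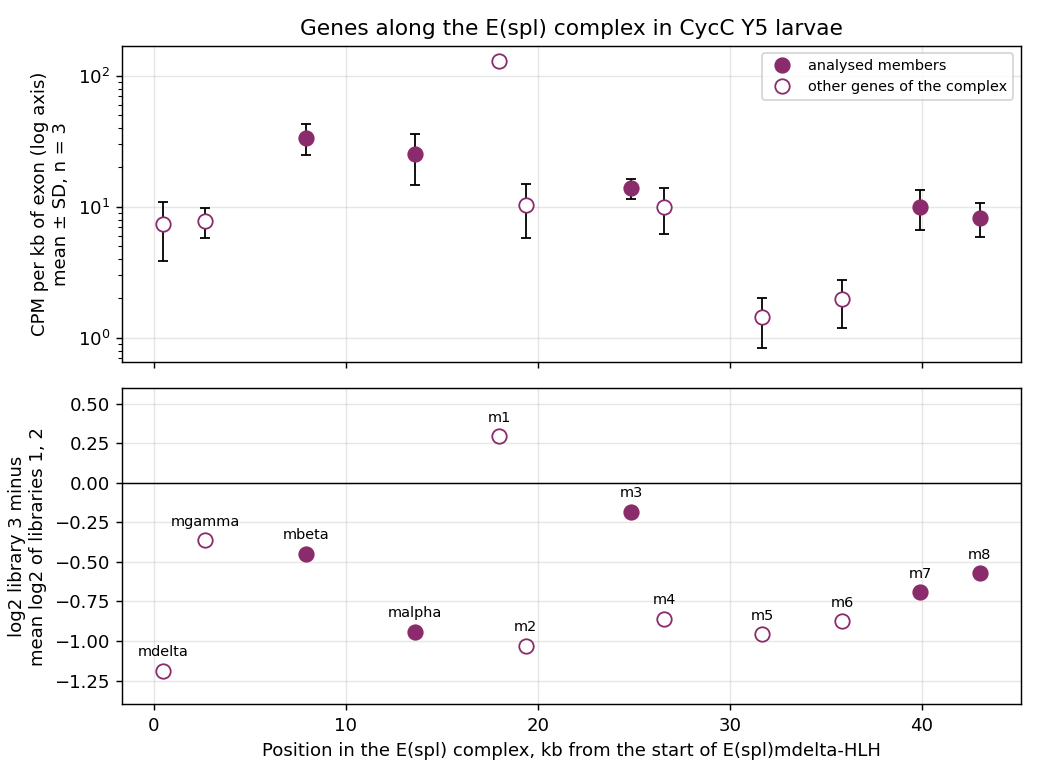
Genes of the E(spl) complex by distance in kb from the start of *E(spl)mdelta-HLH* (horizontal axis). The upper panel gives CPM per kb of exon on a log axis (mean and SD, n = 3), the lower the log2 level of library 3 minus the mean log2 level of libraries 1 and 2, TMM-scaled. Filled points are the 5 members and open points the other 7 genes. *E(spl)m1* alone lies above 0 in the lower panel (0.29), and *E(spl)mdelta-HLH* is the lowest (-1.19).

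Lists of tissue markers differed between the same libraries. The summed level of the 4 muscle markers was 2405, 3008 and 7194 CPM on the TMM scale in libraries 1, 2 and 3, and that of the 4 fat body markers was 27230.0, 23056 and 51806 CPM. The 4 imaginal disc markers summed to 103, 92.4 and 80.6 CPM, with 4 of 4 lowest in library 3 (38.5% of all features) and 2 of 4, *vg* and *Dll*, called (39.4% of all features). Overlap with other genes also makes counts uncertain for *Lsp2* among the fat body markers (84.6% of its span) and *nub* among the disc markers (43.5%). Neuron markers moved in both directions, as *Syt1* was highest in library 3 (adjusted p = 5.7e-73) and *brp* lowest (adjusted p = 0.0096). The glue genes of the salivary gland summed to 6134, 2641 and 4482 CPM and were thus lowest in library 2. The part of tissue make-up in the E(spl) values was not tested. In whole larvae fewer cells of a type and less RNA per cell cannot be told apart.

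The rest of the pathway was called about as often as other features were. Of 47 further genes found by symbol or synonym, the other genes of the complex included, 40 were tested and 18 called, which is beside the background of 39.4%, and 29 of the 40 were lowest in library 3, against 38.5% of all features. The median deviation of library 3 over these 40 genes was -0.18, against -0.0047 over all features. Among the modifiers of the receptor's sugars 3 of 3 were called and lowest in library 3, as were 15.0% of all features, namely *fng* (494, 458 and 368 counts, adjusted p = 0.00023), *rumi* (272, 312 and 226, adjusted p = 0.0052) and *O-fut1* (739, 802 and 672, adjusted p = 0.016). Among the genes for receptor cleavage only the metalloprotease gene *kuz* of 6 was called (1141, 1143 and 960 counts, adjusted p = 0.00017). *Psn*, *Nct*, *aph-1* and *pen-2*, the subunits of gamma-secretase, were not, with adjusted p values of 0.69, 0.43, 0.22 and 0.28. Nor was *Tace* (69, 76 and 65 counts, adjusted p = 0.78). *pen-2* shares 42.7% of its span with other genes.

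Regulators of ligand and receptor traffic gave mixed counts. *lqf*, the epsin gene, was called (4532, 4604 and 3788 counts, adjusted p = 4.7e-20), but *neur*, the ubiquitin ligase gene inhibited by Bearded proteins, had 116, 119 and 125 counts (adjusted p = 0.91), and *mib1* was not called either (adjusted p = 0.14). Of the receptor inhibitors and traffic genes *numb* (adjusted p = 0.011), *Nedd4* (0.0018) and *bib* (0.0011) were called, and *dx* (0.18) and *Su(dx)* (0.20) were not. *spdo* is nested and was listed at 0. The coactivator gene *mam* was called (782, 785 and 608 counts, adjusted p = 4.1e-06), as were the corepressor genes *CtBP* (adjusted p = 1.7e-05) and *Smr* (3.3e-09), while *gro* (1395, 1381 and 1288 counts, adjusted p = 0.14), *Bx42* (0.099) and *insv* (0.81) were not. *Smr* shares 28.1% of its span with other genes.

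The Bearded complex on chromosome 3L, another site of Bearded family genes, had no member called. *Tom* had 259, 239 and 226 counts (adjusted p = 0.40), *Brd* had 59, 47 and 56 (0.57) and *Ocho* had 22, 28 and 23 (0.78), so 0 of 3 tested genes were called by the chi-square test (0 at an unadjusted p under 0.05; 39.4% of all features), 1 of 3 was lowest in library 3, and the median deviation of library 3 was -0.11. Features at such counts were called less often, 16.7% at mean counts of 10 to 100 (*Brd* and *Ocho*) and 28% at 100 to 300 (*Tom*). A result of 0 of 3 therefore does not set these genes apart from other features. *BobA* had 0, 1 and 2 counts and was not tested. The difference between both complexes was not tested. Of the Mediator kinase module beside *CycC*, *skd* was called (adjusted p = 0.00023), and *kto* (0.82) and *Cdk8* (154, 145 and 134 counts, adjusted p = 0.59) were not. Other targets of Notch were low: *dpn* had 28, 22 and 11 counts (adjusted p = 0.059, 67.1% of its span shared with other genes) and *Hey* 12, 14 and 14 (0.95), while *wg* (207, 209 and 150 counts, adjusted p = 0.0087) and *ct* (551, 449 and 427, adjusted p = 0.00019) were called. The proneural gene *ato* had 32, 34 and 27 counts (adjusted p = 0.77), and *ac*, *sc* and *l(1)sc*, which E(spl) proteins repress, are nested and were listed at 0.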

How the data were processed

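The assay was RNA sequencing of 3 pools of *CycC Y5* larvae. Raw read counts, as deposited by the authors, cover genes in 1 table and 124 transposon families in another. The submitters' processing notes name STAR and dm6; the counting program, strand setting and handling of shared reads are not given in the sources used here. In the transposon table the names were read 1 cell to the right, because rows begin with an unnamed number. Another 11 value columns belong to no sample used here and were left out. Of 17896 gene identifiers 17865 had a symbol, and 99.8% of 17819 genes on named chromosomes had BDGP6.54 coordinates, from which exon lengths came.

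CPM used the total of both tables. A quasi-likelihood contrast needs more than 1 genotype and was not run. Spread between libraries was tested across all features by chi-square tests on TMM sizes with Benjamini-Hochberg adjustment (at least 10 counts in each library, threshold 0.05), and edgeR 4.0.16, fitted without group terms, gave the biological coefficients of variation. Deviations used log2 of counts plus 0.5. Alternatives used DESeq2 1.42.0 (R 4.3.3). Tables and plots were made in Python 3.11.15 with pandas 2.3.3, SciPy 1.17.1, NumPy 2.4.6 and matplotlib 3.10.9. In simulated data 199 of 199 features changed 3-fold in 1 library were called, with 12 unchanged ones, of 9970 tested; with counting noise alone 0 of 10013 were, and with a simulated coefficient of variation of 0.2 and no changed library 6674 of 9906 were, so a call means spread beyond counting noise of any source.

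The named genes are the 9 members, every gene counted on the pathway lists and some genes of the marker lists. Members and lists were chosen with earlier results of these data known. *BobB* and *BobC* were not matched. Planned ratios with a gene not analysed here, promoter motifs and sequences were not run; coding lengths came from the annotation.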

Additional observations from a re-analysis of the deposited data

How the results depend on the processing

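No paired analysis was possible because there was 1 genotype only. The number of features that spread between libraries, 3903, was 5950 on total counts, where the general offset of library 3 enters and *E(spl)m3-HLH* (adjusted p = 0.0032) and *E(spl)m8-HLH* (0.0035) were called too; it ranged from 1622 (without library 3) to 3172 with a library left out. DESeq2 size factors, other count minimums and a threshold of 0.01 changed the call of none of the 9 genes. The 4 ratios kept their direction under coding length, gene span, a pseudocount of 1 and each library left out. The log2 ratio of *N* to *E(spl)m7-HLH* reversed with coding length (-0.41), gene span (-1.80) and without library 3 (-0.033; up to 0.15 with another library left out), and that of *H* to *E(spl)m8-HLH* with gene span (-0.17) and without library 3 (-0.068; up to 0.15); the cause was not tested beyond the lengths and library named. Without library 3 the coefficients of variation of 4 E(spl) members fell by over 1.5 times, to 0.110 for *E(spl)malpha-BFM*. The common coefficient over all features fell from 0.171 to 0.121. A total without the 20 most counted features raised 6 of 9 levels by over 1 SD, by its construction. Counts under 100, as for *E(spl)m8-HLH*, limit what spread can be detected.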
